A study of Homo sapiens with 2 samples.

Results

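The HOX genes of the human lung carcinoma line A427 were described in 1 library of adherent cells and 1 library of floating, sphere-forming cells. Members were all symbols of the gene tables that start with HOXA, HOXB, HOXC or HOXD followed by a number, without antisense symbols. This gave 40 of 23686 symbols, which were 39 HOX genes and the readthrough symbol HOXA10-HOXA9. The readthrough symbol had 0 reads in both libraries and is left out of the counts below. A427 is an established human line of non-small cell lung carcinoma, and the groups are its attached cells and its sphere-forming cells. Both grew in RPMI medium with 5% fetal bovine serum, and the labels name no drug or other agent. The genotype label of both is WT, although the title of the series calls A427 CTNNB1-mutated. Attached and floating cells were harvested apart, and 1 mRNA library was sequenced for each (26384670 and 27148842 reads assigned to genes). No spread between cultures is therefore known and no p-value is given.

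HOX genes encode homeodomain transcription factors that give cells of the embryo their place along the head-to-tail axis. They lie in 4 clusters, HOXA on chromosome 7, HOXB on chromosome 17, HOXC on chromosome 12 and HOXD on chromosome 2, and genes of the same number in different clusters are paralogues. Low numbers sit at one end of a cluster and are active early and toward the head, high numbers sit at the other end and are active later and toward the tail. Adult cells often keep a stable record of their place of origin in the set of HOX genes they express. In the lung, genes of the anterior and central groups of HOXA and HOXB are the ones best known from development, HOXA5 above all.

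The expressed set in A427 skipped a stretch of posterior genes. Paralogues 2, 6, 8, 9 and 13 were expressed in every cluster that holds them, while paralogues 11 and 12 were at or near 0 reads. The 120 bases before the start of 3 HOXD genes in and beside that gap, of HOXD8, and of HOXA13 and HOXA11 are shown to let the active and the silent starts be read side by side. They come from RefSeq (GRCh38.p14), run 5′ to 3′ and have each CpG in capitals. On the plus strand of chromosome 2 the windows are chr2:176092601-176092720 for HOXD13, chr2:176099675-176099794 for HOXD12, chr2:176107160-176107279 for HOXD11 and chr2:176129585-176129704 for HOXD8. On the minus strand of chromosome 7 they are chr7:27200092-27200211 for HOXA13 and chr7:27185233-27185352 for HOXA11.
HOXD13: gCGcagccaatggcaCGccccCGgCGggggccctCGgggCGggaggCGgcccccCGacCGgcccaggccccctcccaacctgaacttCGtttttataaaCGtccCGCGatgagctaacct
HOXD12: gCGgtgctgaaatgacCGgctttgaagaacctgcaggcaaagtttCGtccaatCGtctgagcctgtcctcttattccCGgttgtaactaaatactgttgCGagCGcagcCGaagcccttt
HOXD11: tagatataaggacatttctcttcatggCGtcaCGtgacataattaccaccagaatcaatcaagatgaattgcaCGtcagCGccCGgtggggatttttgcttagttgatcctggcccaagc
HOXD8: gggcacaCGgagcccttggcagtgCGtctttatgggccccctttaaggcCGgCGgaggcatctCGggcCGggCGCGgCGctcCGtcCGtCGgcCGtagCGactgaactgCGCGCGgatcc
HOXA13: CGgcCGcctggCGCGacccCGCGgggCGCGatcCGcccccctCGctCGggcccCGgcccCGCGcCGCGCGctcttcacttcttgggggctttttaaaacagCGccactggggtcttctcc
HOXA11: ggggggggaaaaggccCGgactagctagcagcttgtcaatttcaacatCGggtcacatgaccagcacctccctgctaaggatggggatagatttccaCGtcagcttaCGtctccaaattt
The 3 expressed genes have 13 (HOXD13), 17 (HOXD8) and 18 (HOXA13) CpG dinucleotides in these windows, and the 3 genes near 0 have 8 (HOXD12), 5 (HOXD11) and 4 (HOXA11). The windows were chosen after the levels were seen. Over 250 bases the counts were 21 (HOXD13), 28 (HOXD8) and 40 (HOXA13) against 16 (HOXD12), 23 (HOXD11) and 11 (HOXA11), so HOXD11 passed HOXD13. For all matched genes a different measure was taken, the ratio of observed to expected CpG. On that measure the median of the expressed genes did not stand higher. Promoter windows were found by symbol for 20 of 39 genes. In the 250 bases before the start, the ratio of observed to expected CpG had a median of 0.80 over 18 windows of genes with at least 1 TPM in both libraries. These windows came from 11 genes, and many were starts of HOXA3, with ratios from 0.00 to 1.22, so this median leans on 1 gene. The median was 0.90 over 8 windows of the other genes, and HOXD11 at 0.98 stood above HOXD13 at 0.62. The median of all 35116 promoter windows was 0.56.

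Short motifs were searched on both strands of the same 250 bases. The CCAAT box (CCAAT) was in 17 of 26 distinct HOX windows, 65.4%, against 32% of all promoter windows. The TATA box (TATAAA) was in 5 windows, those of HOXA3, HOXA9, HOXD13 and a pair of HOXA10 starts (19.2% against 10.7%). HOXD13 shows it near the end of the stretch printed above. The motif TTTATNG, which CDX and posterior HOX factors can bind, was in 6 windows, of HOXA3, HOXA9, HOXA10, HOXC4 and HOXD8 (23.1% against 8.93%). The MEIS motif TGACAG was in the windows of HOXA2 and HOXA4 (7.69% against 13%), and the nuclear receptor motif AGGTCA was in none, against 12.1% of all. Several HOX starts lie in 1 gene, so the windows are not independent, and a match in sequence is not a bound site.

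Most HOX genes were expressed in both libraries. With a threshold of 1 TPM (transcripts per 1000000, a level per transcript length), 29 of 39 were expressed in the adherent library, 74.4%, against 55.0% of all gene symbols. In the floating library 27 of 39 were expressed, 69.2%, against 55.0%. All 27 also passed in the adherent library, and the other 2 were HOXC4 and HOXD3. By cluster, 9 of 11 HOXA genes, 9 of 10 HOXB genes, 4 of 9 HOXC genes and 5 of 9 HOXD genes passed in both. Means over the libraries reached 10 TPM for 13 genes, lay between 1 and 10 TPM for 15 and under 1 TPM for 7, and 4 genes had no read (HOXB1, HOXC11, HOXC12 and HOXD11). HOX transcripts together summed to 368 TPM (adherent) and 327 TPM (floating). In bulk RNA, a low level in all cells and a high level in few cells cannot be told apart.

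**Figure D1:**
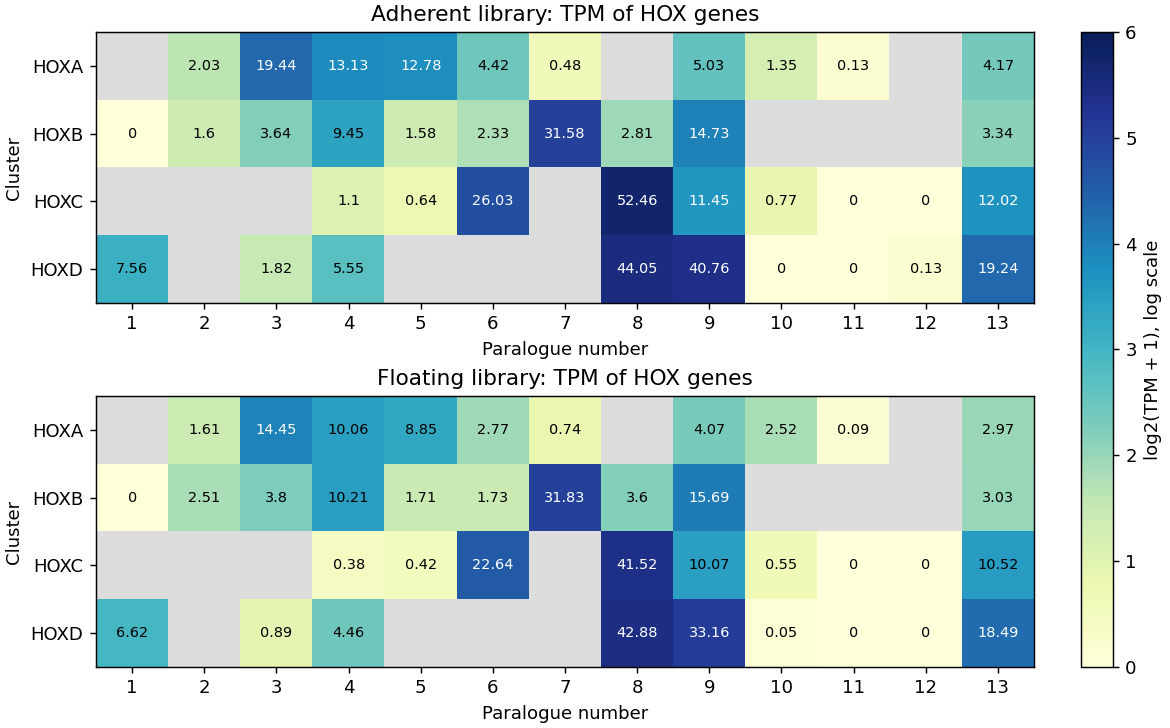
TPM of HOX genes (number in the cell, colour on a log scale) by cluster (rows) and paralogue number (columns) in the adherent library (top) and the floating library (bottom), with grey where no gene is shown. Levels peak at paralogue 8 in HOXC and HOXD, at paralogue 7 in HOXB and at paralogue 3 in HOXA. In HOXA, HOXC and HOXD they fall to 0 or nearly 0 at the genes of paralogues 11 and 12 and return at paralogue 13. HOXB has no gene between HOXB9 and HOXB13, and its HOXB13 is expressed.

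The anterior genes, paralogues 1 to 3, lay below the central and posterior ones in summed level. These groups differ in size, with 8 anterior, 15 central and 16 posterior genes. Per gene, the anterior median was 2.83 TPM (adherent) and 3.15 TPM (floating). It stood above the posterior median, 2.34 and 2.75 TPM, and below the central median, 5.55 and 4.46 TPM. HOXA3, which acts in the thymus and parathyroid, reached 19.44 TPM in the adherent and 14.45 TPM in the floating library. HOXA2, which patterns the pharyngeal arches, was lower, at 2.03 and 1.61 TPM. In HOXB, HOXB1 had no read in either library, which allows up to 0.114 CPM (counts per 1000000 of the scaled library) in adherent and 0.11 CPM in floating cells. HOXB2 was at 1.6 and 2.51 TPM and HOXB3 at 3.64 and 3.8 TPM. HOXD1 was at 7.56 and 6.62 TPM and HOXD3 at 1.82 and 0.89 TPM. The 8 anterior genes made up 12.7% of the summed HOX TPM in adherent and 12.8% in floating cells.

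The central genes, paralogues 4 to 8, held the largest share, 56.6% of the summed HOX TPM in adherent and 56.2% in floating cells. HOXC8, a gene of the thoracic region, was the highest HOX gene of the adherent library at 52.46 TPM (counting interval 49.7 to 55.3) and stood at 41.52 TPM (39.2 to 44.0) in floating cells. HOXD8 was at 44.05 TPM (41.3 to 47.0) and 42.88 TPM (40.2 to 45.6), so it was below HOXC8 in adherent cells, while in floating cells the intervals of these genes overlapped. HOXB7 followed at 31.58 and 31.83 TPM, and HOXC6 at 26.03 and 22.64 TPM. HOXA4 was at 13.13 and 10.06 TPM, HOXB4, known from blood stem cells, at 9.45 and 10.21 TPM, and HOXD4 at 5.55 and 4.46 TPM. HOXA5, needed for lung development, was at 12.78 and 8.85 TPM. The other central genes of HOXA and HOXB were lower, with HOXA6 at 4.42 and 2.77 TPM, HOXA7 at 0.48 and 0.74 TPM, HOXB5 at 1.58 and 1.71 TPM, HOXB6 at 2.33 and 1.73 TPM, and HOXB8 at 2.81 and 3.6 TPM. Neighbours therefore differed within a cluster. HOXB7 lay between HOXB6 and HOXB8 with the highest level of HOXB in both libraries, whereas its paralogue HOXA7 was the lowest gene of central HOXA.

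The posterior genes, paralogues 9 to 13, were split. Paralogue 9, which acts in the thoracic and lumbar trunk, was expressed from all clusters. HOXD9 was at 40.76 and 33.16 TPM, HOXB9 at 14.73 and 15.69 TPM, HOXC9 at 11.45 and 10.07 TPM, and HOXA9, known from blood progenitors and leukaemia, at 5.03 and 4.07 TPM. Of paralogue 10, only HOXA10, a gene of the uterus and the lumbar spine, passed 1 TPM, at 1.35 and 2.52 TPM, while HOXC10 was at 0.77 and 0.55 TPM and HOXD10 had 0 and 1 reads. Of paralogues 11 and 12, HOXA11 had 4 and 3 reads and HOXD12 had 1 and 0 reads, and HOXC11, HOXC12 and HOXD11 had none. The 8 genes of paralogues 10 to 12 added up to 2.38 TPM in the adherent library and 3.21 TPM in the floating one.

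Paralogue 13 was expressed from all 4 clusters and summed to 38.8 TPM in the adherent library and 35 TPM in the floating one. These genes mark the tail end of the axis, the digits and the hindgut and urogenital tract. HOXD13 was at 19.24 TPM (counting interval 17.6 to 21.0) and 18.49 TPM (16.9 to 20.1). HOXC13, which controls hair and nail keratins, was at 12.02 and 10.52 TPM. HOXA13 was at 4.17 and 2.97 TPM, and HOXB13, best known from the prostate and the distal gut, at 3.34 and 3.03 TPM. The gap was seen in HOXA, HOXC and HOXD, and HOXB has no gene between HOXB9 and HOXB13. In HOXD, 513 and 526 reads of HOXD13 stood beside at most 1 read of HOXD12, HOXD11 or HOXD10 in either library, and the next gene, HOXD9, had 860 and 746 reads. In HOXC, HOXC13 had 331 and 309 reads, HOXC12 and HOXC11 had none, and HOXC10 had 17 and 13. In HOXA the gap was narrower, with 121 and 92 reads of HOXA13, 4 and 3 of HOXA11, 37 and 69 of HOXA10 and 117 and 101 of HOXA9.

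**Figure D2:**
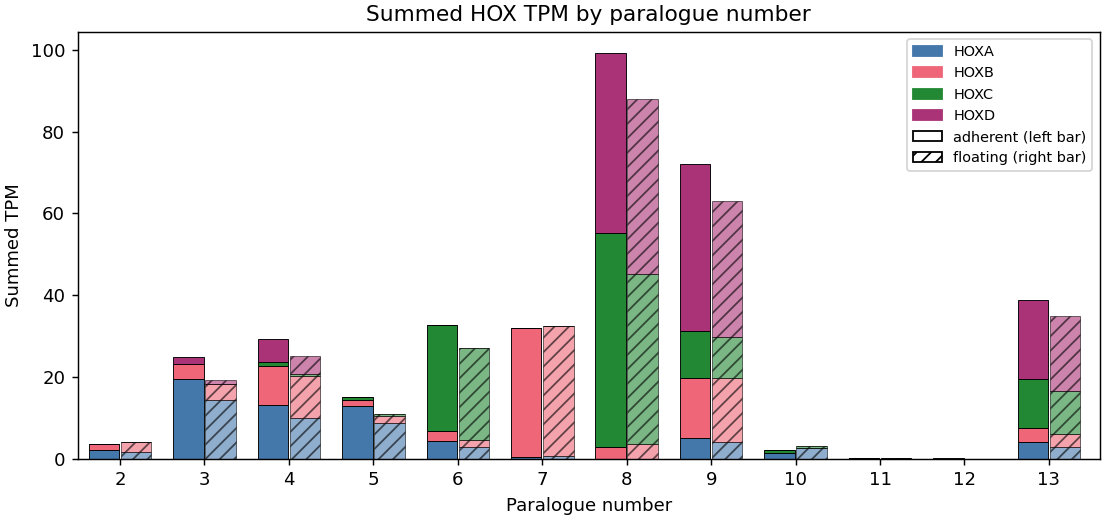
Summed TPM of the HOX genes of paralogue numbers 2 to 13 (x axis), stacked by cluster (colours), with the adherent library as the left and the floating library as the right bar. Paralogue 8 holds 99.3 and 88.0 TPM, paralogue 9 holds 72.0 and 63.0 TPM, paralogue 12 holds 0.130 and 0 TPM, and paralogue 13 holds 38.8 and 35 TPM.

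The floating and adherent libraries carried nearly the same code. Of the 39 genes, 28 reached 1 CPM in either library, as did 55.4% of all symbols, and were compared by the log2 ratio of floating over adherent on scaled counts. The interval given with each ratio is an exact 95% interval that covers counting error only. None of the 28 was at least 2-fold higher with an interval above 0 (1.28% of all 13131 tested genes were), and none was at least 2-fold lower with an interval below 0 (0.754% were). Ratios lay within 1.5-fold for 24 of 28, 85.7%, against 93.3% of all tested genes. The median log2 ratio of the 28 was -0.14, with a range from -0.98 to 0.84, and the median of all tested genes was -0.0048. Intervals lay below 0 for 7 of 28, 25%, against 25.6% of all tested genes, and above 0 for 1 of 28, 3.57%, against 25.5%. Intervals widen as counts fall, so these shares also depend on how abundant the genes are. At 1.5-fold, 1 HOX gene was higher (HOXA10, against 3.24% of all tested genes) and 1 lower (HOXD3, against 2.90%). In sign, 18 of the 28 ratios were below 0 and 10 above. Summed over all 39 genes, HOX reads were 8538 in adherent and 8114 in floating cells, 1.09-fold lower (interval 1.06 to 1.12).

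The lowest and the highest ratio belonged to weakly expressed genes. HOXD3 had 48 reads in adherent and 25 in floating cells and was 1.97-fold lower (interval 1.20 to 3.36), just short of 2-fold. GENCODE v29 places exons of the antisense RNA HAGLR, listed here under its older name HOXD-AS1, over exons of HOXD3. HOXD-AS1 was at 35.74 and 29.85 TPM, far above HOXD3. Both have whole-number estimates in both libraries, so the estimates show no reads divided between them, and no source used here says whether counting used strand. HOXA10 had 37 and 69 reads and was 1.79-fold higher in floating cells (1.19 to 2.76), the only interval above 0. The antisense gene HOXA10-AS, listed as HOXA-AS4, overlaps it and had 66 and 86 reads (log2 ratio 0.33, interval -0.15 to 0.82). HOXB2, with 28 and 47 reads, had a log2 ratio of 0.69 (interval -0.01 to 1.43), and HOXA6, with 33 and 22 reads, one of -0.62 (-1.48 to 0.19).

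The other 6 genes with intervals below 0 differed by less. Lower in floating cells were HOXA5 by 1.40-fold (interval 1.15 to 1.72), HOXA13 by 1.36-fold (1.03 to 1.80), HOXA3 by 1.29-fold (1.16 to 1.44), HOXA4 by 1.27-fold (1.05 to 1.53), HOXC8 by 1.23-fold (1.13 to 1.33) and HOXD9 by 1.19-fold (1.08 to 1.32). With HOXD3 these were the 7 genes counted above, and 4 of them were HOXA genes. The steadiest were HOXD13, HOXD8 and HOXB7. Their log2 ratios were -0.01 (-0.19 to 0.17), 0.04 (-0.09 to 0.17) and 0.05 (-0.13 to 0.24), and that of HOXD8 was -0.04 on deposited TPM.

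**Figure D3:**
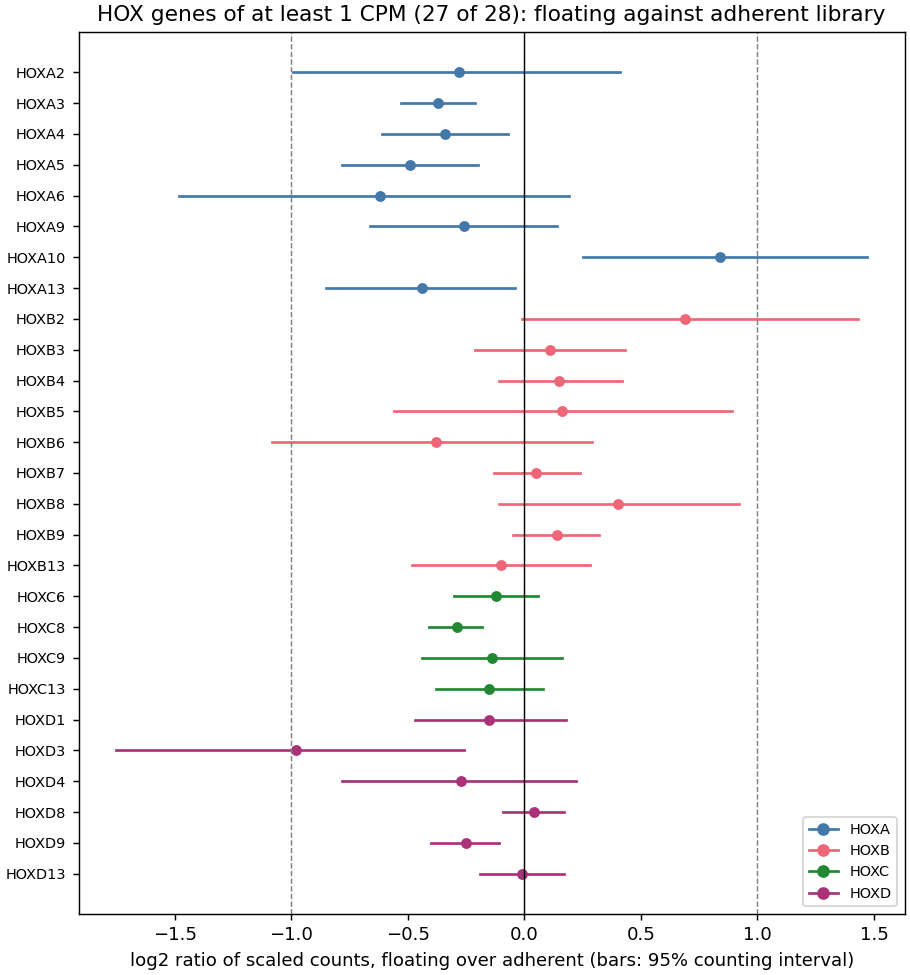
Log2 ratio of floating over adherent scaled counts (points) with the 95% counting interval (bars) for 27 of the 28 HOX genes of at least 1 CPM, coloured by cluster, with dashed lines at 2-fold. All points lie inside the dashed lines, HOXA10 is the 1 bar wholly above 0, and 7 bars lie wholly below 0.

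The clusters shifted against each other by small amounts. Summed over its genes, HOXA was 1.17-fold lower in floating cells (log2 ratio -0.23, interval -0.33 to -0.14), with 1909 and 1681 reads. HOXC was also 1.17-fold lower (-0.23, -0.31 to -0.15), with 2466 and 2175 reads, and HOXD 1.07-fold lower (-0.10, -0.18 to -0.02), with 2589 and 2504 reads. The HOXB sum, 1574 and 1754 reads, was higher by 1.08-fold (0.11, 0.01 to 0.21). The interval of HOXB included 0 with upper-quartile scaling (-0.01 to 0.19) and without its most counted gene, HOXB9 (-0.02 to 0.21). Without their most counted genes, the sums were -0.15 for HOXA (-0.27 to -0.03, without HOXA3), -0.15 for HOXC (-0.28 to -0.03, without HOXC8) and -0.18 for HOXD (-0.28 to -0.08, without HOXD8). Of the tested genes, 7 of 9 in HOXB had ratios above 0, though no single interval excluded 0, against 2 of 9 in HOXA, 0 of 4 in HOXC and 1 of 6 in HOXD.

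A share within each library does not depend on how the libraries were scaled. HOXB took 18.4% of all HOX reads in adherent cells (Clopper-Pearson interval 17.6 to 19.3) and 21.6% in floating cells (20.7 to 22.5). HOXA went from 22.4% (21.5 to 23.3) to 20.7% (19.8 to 21.6) and HOXC from 28.9% (27.9 to 29.9) to 26.8% (25.8 to 27.8). HOXD was at 30.3% (29.3 to 31.3) and 30.9% (29.9 to 31.9). The intervals of the 2 libraries did not overlap for HOXB and HOXC. They overlapped by a narrow margin for HOXA and widely for HOXD. Overlap of separate intervals does not show that a share stayed the same. The shares of a library add up to the whole, so a rise in HOXB forces falls elsewhere and the clusters are not separate results. The share of HOXD rose slightly although its summed reads were 1.07-fold lower. Counting error is the only error in these intervals, and whether 2 cultures of the same kind would differ as much was not measured.

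**Figure D4:**
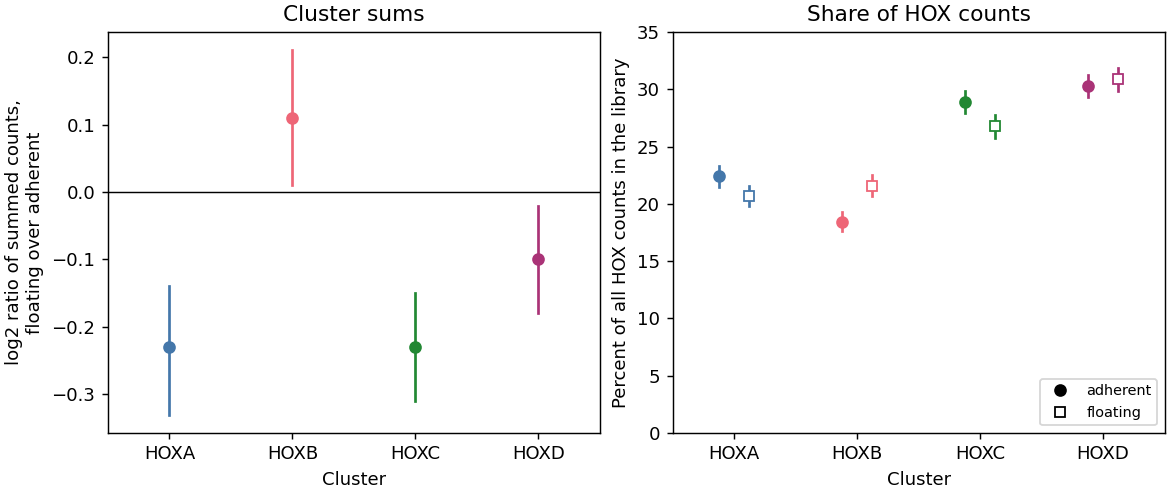
Left, log2 ratio of floating over adherent counts summed over each HOX cluster, with the 95% counting interval. Right, percent of all HOX counts in each cluster for the adherent (filled circles) and floating (open squares) library, with Clopper-Pearson intervals. HOXB is the cluster with a sum above 0 and its share goes from 18.4% to 21.6%.

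Some HOX genes share sequence, which limits single values. The estimates of HOXC4, HOXC5 and HOXC6 have decimals, the sign of reads divided between genes, while those of all other HOX genes are whole numbers. Exons of these genes overlap on the same strand, and the RefSeq promoter windows of HOXC4 and HOXC5 are the same stretch of the plus strand of chromosome 12, shown for its last 120 bases (GRCh38.p14, chr12:54016768-54016887), again with CpG in capitals.
HOXC4 and HOXC5: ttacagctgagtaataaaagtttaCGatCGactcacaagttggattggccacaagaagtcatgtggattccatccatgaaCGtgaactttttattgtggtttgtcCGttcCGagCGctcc
HOXC4 had an estimate of 21.45 reads in adherent and 8.51 in floating cells (1.1 and 0.38 TPM), HOXC5 11.38 and 8 (0.64 and 0.42 TPM), and HOXC6 521.17 and 497.49. HOXC4 was under 1 CPM in both libraries and was not compared. Without that filter it would be the 1 HOX gene past 2-fold with an interval that excludes 0, at 2.34-fold lower (interval 1.06 to 5.99), as were 0.956% of all genes with reads. That interval leaves out the error of dividing reads. For the sum of these genes the log2 ratio was -0.15 (-0.33 to 0.02). In GENCODE v29, 20 of the 39 HOX genes have an exon that overlaps an exon of another gene, 14 of them on the opposite strand. HOXA10, HOXB2 and, of the 7 genes with intervals below 0, HOXA3, HOXA4 and HOXD3 are among those 14.

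Noncoding RNAs of the clusters followed the same range. Of 12 on the list that were in the tables, 5 reached 1 TPM in both libraries and 4 were compared, with none past 2-fold and a median log2 ratio of -0.12. Of all tested genes, 2.03% were past 2-fold either way with an interval excluding 0, so a list this short can easily hold none. HOXD-AS1, the highest of the list, had a log2 ratio of -0.22 (-0.32 to -0.11). HOTAIRM1, at the anterior end of HOXA, was at 20.85 and 17.75 TPM and HOXD-AS2 at 8.38 and 7.9 TPM. HOTAIR, transcribed from between HOXC11 and HOXC12, had no read in either library, as had the genes on both its sides. HOTTIP, at the posterior end of HOXA beside HOXA13, had 8 and 12 reads.

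Outside the clusters, the genes EVX1 beyond HOXA13 and EVX2 beyond HOXD13, homeobox genes themselves, had no reads. The next protein-coding genes were expressed: HIBADH beyond EVX1 was at 61.67 and 62.33 TPM, and KIAA1715 (now LNPK) beyond EVX2 at 14.33 and 16.07 TPM. At the anterior ends, SKAP2 beside HOXA stood at 70.06 and 60.18 TPM, MTX2 beside HOXD at 67 and 73.43 TPM, and SMUG1 beside HOXC at 36.47 and 38.86 TPM. The genes beside HOXB were low, with SKAP1 at the anterior end at 0.12 and 0.98 TPM and TTLL6 beyond HOXB13 at 0.46 and 0.41 TPM. Of 18 neighbours on the list, 13 were compared and none passed 2-fold, with a median log2 ratio of 0.04. At the share of all tested genes, 2.03% either way, a list this short can easily hold none. The ones with most TPM were HNRNPA1, ATP5G2, TAX1BP1 and CBX5, with log2 ratios of -0.07, -0.09, 0.01 and 0.07.

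HOX proteins bind DNA together with the TALE homeodomain cofactors of the PBX, MEIS and PKNOX families. Of 10 genes on that list, which includes the PBX-binding protein PBXIP1, 9 were compared. None passed 2-fold, against 2.03% of all tested genes either way, a share at which so few genes can easily hold none. Intervals lay below 0 for 5 (25.6% of all tested genes) and above 0 for none (25.5%), and the median log2 ratio was -0.34. By mean TPM of both libraries PBX2 was highest, at 132.72 and 108.44 TPM (log2 ratio -0.25, interval -0.31 to -0.19), followed by PBX3 at 29.82 and 30.08 TPM, PBXIP1 at 32.42 and 21.51 TPM (-0.55, -0.67 to -0.42) and MEIS3 at 30.02 and 22.3 TPM (-0.39, -0.55 to -0.22). MEIS1 was at 3.8 and 2.78 TPM.

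Every listed regulator of HOX chromatin passed 1 TPM, as did 55.0% of all gene symbols in each library. Polycomb proteins keep HOX genes silent, and all 30 listed genes passed 1 TPM in both libraries, with none past 2-fold, 16 intervals below 0 and 4 above (25.6% and 25.5% of all tested genes), and a median of -0.09. RBBP7 was highest, at 303.78 and 279.66 TPM, and SUZ12, RBBP4 and PHC1 followed with log2 ratios of -0.06, -0.25 and -0.33. The methyltransferase EZH2 was at 62.28 and 55.62 TPM. All 21 genes of the Trithorax, MLL and DOT1L list, which keep HOX genes active, also passed 1 TPM, with none past 2-fold and a median of -0.06. Of their intervals, 10 lay below 0 and 5 above, again beside 25.6% and 25.5% of all tested genes. Intervals narrow as counts rise, so the counts of both lists also depend on how abundant the genes are. Past 2-fold either way were 2.03% of all tested genes, a share at which both lists can easily hold none. DPY30, PSIP1, AFF4 and MEN1 led with log2 ratios of 0.16, -0.18, -0.10 and -0.20, and MLL (now KMT2A) was at 24.91 and 19.57 TPM.

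Retinoic acid switches on anterior HOX genes in the embryo. Of 23 genes of its pathway, 14 were compared, none passed 2-fold, and the median was -0.06, with 6 ratios above 0 and 8 below. Among all tested genes 2.03% passed 2-fold either way, so none in a list of this size is no sign of stability. The synthesis enzyme ALDH1A1 was at 5014.66 and 4063.95 TPM, the receptor RARG at 86.57 and 64.81 TPM (log2 ratio -0.38, interval -0.46 to -0.30) and the co-repressor NCOR1 was at a log2 ratio of 0.17. The receptor RARB, a direct target of the hormone, was at 9.92 and 6.41 TPM (-0.60, -0.85 to -0.36), and the degrading enzyme CYP26B1 at 6.92 and 5.5 TPM. DHRS3, on the same list, went the other way, at 2.69 and 3.69 TPM (0.50, -0.02 to 1.03). Of 8 ParaHox and EVX genes, CDX2, a regulator of posterior HOX genes and of the gut, was at 3.75 and 3.58 TPM (-0.02, -0.43 to 0.39), PDX1 at 0.81 and 0.94 TPM, and the other 6 had no reads.

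Markers of cell type were read beside the HOX genes. Of 5 epithelial markers, 4 passed 1 TPM in both libraries, and the list summed to 1304 (adherent) and 1791 TPM (floating). EPCAM (615.34 and 581.81 TPM), KRT8 (326.59 and 581.13), KRT18 (342.47 and 612.52) and CDH1 (18.85 and 13.94) were present, and KRT19 was at 0.5 and 1.3 TPM. Of 5 lung lineage markers 1 passed, FOXA1 at 7.06 and 4.81 TPM. The lung and surfactant genes NKX2-1 (3 and 13 reads), SFTPB (0 and 1 reads) and SFTPC (none) were at or near 0, and FOXA2 was at 0.83 and 0.98 TPM. Other markers of lung epithelium were not on the list. All 4 mesenchymal markers passed and summed to 5287 and 4867 TPM, with VIM at 5264.01 and 4850.24 TPM, COL1A1 at 13.88 and 7.98, ZEB1 at 6.6 and 6.63 and CDH2 at 2.81 and 1.88 TPM. Of 3 leukocyte markers, CD3E had no reads, PTPRC was at 2.84 and 1.95 TPM and CD68 at 16.88 and 31.46 TPM. Of 3 endothelial markers, CDH5 had no reads, PECAM1 had 0 and 2 and VWF 14 and 44 reads. VWF, 2.97-fold higher in floating cells (log2 ratio 1.57, interval 0.71 to 2.59), was the 1 marker past 2-fold among those of at least 1 CPM. Of all tested genes, 1.28% were at least 2-fold higher with an interval above 0. Below 1 CPM in both libraries, NKX2-1 (3.73-fold, interval 1.15 to 22.9) and KRT19 (2.56-fold, interval 1.14 to 6.90) were also past 2-fold with intervals above 0. Both rest on few reads, and the share of all genes that much higher without the filter was not counted. The part of these marker shifts in the HOX ratios was not tested.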

How the data were processed

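Per the labels' protocols, KAPA kits for mRNA were used on total RNA. The submitters' processing notes name FastQC 0.11.1, STAR 2.5.3a, RSEM 1.3.3 and hg19. No source used here gives the annotation or the use of strand. The authors deposited estimated counts per gene symbol, without normalization, and the authors also deposited TPM, scaled to about 1000000 per column.

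Counts were rounded, giving totals of 26384670 (adherent) and 27148842 (floating), and scaled by TMM in edgeR 4.0.16 (R 4.3.3). Log2 ratios compared (count + 0.5) divided by the scaled library size. The 13131 genes that reached 1 CPM in either library were compared. Intervals are exact 95% Clopper-Pearson intervals conditional on a gene's summed reads, and those of TPM are exact Poisson intervals. They cover counting error only. Reads without molecular identifiers are not independent molecules, so the intervals can be too narrow even for that error. A gene with 0 reads is allowed up to 3. A call needs 2-fold and an interval excluding 0. With 1 library per group no test was run. The calculation was tested on simulated data.

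All HOX genes are named but 1, which like 1 gene of the retinoic acid list is not reported here, and of each other list the 4 members of highest TPM, those past 2-fold and every marker; others named in the text, such as MEIS1, EZH2, MLL, RARB, HOTAIR and genes beside the clusters, were chosen after their values were seen. The members and lists were chosen with earlier results of these data known. Promoters are RefSeq's (GRCh38.p14) and overlaps GENCODE v29's. Both are on another build than the files, so symbols were matched and no coordinates were converted. Protein sequences were not used here. The alternatives tried were scaling by the upper quartile, by library totals or by size factors of DESeq2 1.42.0, log2 of TPM + 0.1, a prior count of 5, no filter, 5 CPM, 1.5-fold and 4-fold, no interval and whole-number estimates only. Figures and other calculations used Python 3.11.15.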

Additional observations from a re-analysis of the deposited data

How the results depend on the processing

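No HOX gene was past 2-fold under any of the 4 ways of scaling, on TPM, with a prior count of 5, at 5 CPM, without the counting interval or at 4-fold. At 1.5-fold, 1 was higher (HOXA10, with 3.24% of all tested genes) and 1 lower (HOXD3, with 2.90%), and with no filter 1 was lower (HOXC4, with 0.956% of genes with reads). Intervals above 0 numbered 2 with DESeq2 size factors, 2 with library totals and 0 at 5 CPM. At 5 TPM, 17 genes were expressed in adherent and 15 in floating cells. The HOXB sum was 0.09 with the upper quartile and 0.10 without HOXB9, an alternative chosen after seeing the data, each with an interval that included 0. Cluster shares of HOX TPM (HOXA 20% and 18.4%, HOXB 19.3% and 22.7%, HOXC 28.4% and 26.3%, HOXD 32.3% and 32.6% in adherent and floating cells) became, on counts not divided by length, 22.4% and 20.7% for HOXA, 18.4% and 21.6% for HOXB and 30.3% and 30.9% for HOXD. Without HOXC4, HOXC5 and HOXC6 they were 21.7% and 19.8%, 20.9% and 24.4%, 22.5% and 20.7%, and 35% and 35.1%. Of 140 alternatives for single genes, all 140 stayed in the gene's counting interval and 1 changed sign, that of HOXD8 on TPM. The other scalings moved ratios far less than the intervals are wide, so for them this was not a strict check. For HOXA3 they gave -0.36, -0.36 and -0.38 beside -0.37 (interval -0.53 to -0.21). TPM gives no interval, so counts of intervals have no value there. No paired analysis was possible because each growth form has 1 library. Depth limits the genes of few reads most: HOXA6, with 33 and 22 reads, was 1.54-fold lower with an interval from 0.878 to 2.79.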

Other observations

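SKAP1, an adaptor of T-cell signalling and the first protein-coding gene beyond the anterior end of HOXB, had 2 reads in adherent and 18 in floating cells. The log2 ratio was 2.84 (counting interval 1.06 to 6.27). It was under 1 CPM in both libraries and so was not compared with the others, and it was chosen after its values were seen. TTLL6, the first protein-coding gene beyond HOXB13, had 16 reads in both.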
